A study of Mus musculus with 13 samples.

Results

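The genes described here are those of the ionotropic glutamate receptors, the metabotropic glutamate receptors, the GABA-A and GABA-B receptors and the glycine receptors in the retina of Rpe65-/- and wild-type (WT) mice. They were chosen by symbol from the nuclear count table, with a minimum of 10 counts in at least 4 of 13 libraries. The rule leaves out Grik1 and Grm6, so the kainate and metabotropic classes are not complete here. All 46 symbols that matched the rule passed this minimum, out of 29700 nuclear genes in the table. They fall into 11 classes: AMPA, kainate, delta and NMDA receptors, metabotropic glutamate receptors, GABA-A alpha, beta, gamma with delta, and Gabrr subunits, GABA-B receptors and glycine receptors.

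RNA was sequenced from 1 retina per mouse in 3 groups. Rpe65-/- mice given TMB (n = 5) received 3 drugs in the chow: tamsulosin and metoprolol, which block alpha-1 and beta-1 adrenergic receptors, and bromocriptine, which activates D2-type dopamine receptors, from postnatal day 22 until collection on day 64. Rpe65-/- mice on vehicle (n = 4) ate the base chow and were also collected on day 64. WT mice (n = 4) were C57BL/6J animals aged 2 months on base chow, and the Rpe65-/- mice are labelled as having a C57BL/6J background, although the study's reporting summary calls it not exactly known and probably for the most part C57BL/6J. A strain difference from WT thus cannot be told apart from the genotype. Each library is named by its group, followed by the labelled sex letter and number. Rpe65-/- mice lack the retinoid isomerase that makes the chromophore of the visual pigments, and they model Leber congenital amaurosis, an early-onset blindness.

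Photoreceptors release glutamate in darkness, and bipolar, horizontal, amacrine and ganglion cells read it with AMPA, kainate, NMDA and metabotropic receptors. Amacrine and horizontal cells answer with GABA and glycine, which act on chloride channels of the GABA-A and glycine families and on the G protein-coupled GABA-B receptor. Each channel is assembled from several subunits, and the subunits present set its speed, its ion selectivity and its drug sensitivity.

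Receptor genes of like function differed widely in the share of G and C bases (GC) of their transcripts, from 35.2% in Glra3 to 65.0% in Grin2d (GC of the longest annotated transcript). The kainate receptor subunits show how this looks in letters. The stretch printed here encodes the longest run of residues that Grik2, Grik3, Grik4 and Grik5 share, 19 residues in the third membrane segment, read from the coding sequences of GENCODE M21 (GRCm38). The protein is the same, and capitals mark a G or C at the third base of a codon.
Grik2: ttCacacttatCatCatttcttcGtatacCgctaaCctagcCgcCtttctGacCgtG
Grik3: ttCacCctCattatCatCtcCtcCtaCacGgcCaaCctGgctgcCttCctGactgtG
Grik4: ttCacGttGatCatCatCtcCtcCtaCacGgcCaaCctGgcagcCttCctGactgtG
Grik5: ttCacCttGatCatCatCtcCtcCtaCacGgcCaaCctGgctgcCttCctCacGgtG
Of the 19 codons, 11 ended in G or C in Grik2, 16 in Grik3, 17 in Grik4 and 18 in Grik5. Over the whole coding sequence the share of codons that end in G or C was 49.0% in Grik2, 76.1% in Grik3, 70.6% in Grik4 and 80.4% in Grik5. The genes lie at chr10:49094833-49788766, chr4:125490700-125714173, chr9:42518135-42944493 and chr7:25009849-25072346 (GRCm38).

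The glycine receptor alpha subunits Glra1, Glra2 and Glra3 share 41 residues from the second membrane segment into the third, and these are shown because Glra1 and the others moved in opposite directions. Capitals again mark a G or C at the third base of a codon.
Glra1: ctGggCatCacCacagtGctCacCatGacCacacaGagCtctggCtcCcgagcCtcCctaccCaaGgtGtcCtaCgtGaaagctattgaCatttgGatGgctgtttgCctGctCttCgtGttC
Glra2: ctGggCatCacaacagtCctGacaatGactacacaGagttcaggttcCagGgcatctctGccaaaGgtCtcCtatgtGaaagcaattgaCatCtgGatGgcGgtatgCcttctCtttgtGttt
Glra3: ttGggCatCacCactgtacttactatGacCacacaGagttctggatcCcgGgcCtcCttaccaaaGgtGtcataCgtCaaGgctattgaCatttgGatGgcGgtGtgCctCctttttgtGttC
Of the 41 codons, 30 ended in G or C in Glra1, 22 in Glra2 and 25 in Glra3, and over the whole coding sequence the share was 71.3% in Glra1, 52.2% in Glra2 and 50.4% in Glra3. Glra1 lies at chr11:55514238-55608198, Glra2 at chrX:165129017-165327393 and Glra3 at chr8:55940460-56130070.

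Nuclear counts per library ranged from 13512155 to 16449989. Rpe65 had 0 to 7 counts in TMB, 1 to 8 in vehicle and 72 to 226 in WT libraries, so the labels of genotype held for every library, vehicle F1 included, which the deposited ID sheet lists as C57BL/6J. That sheet does not list WT M1. Vehicle F2 is labelled female but had 1 count of Xist and 1400 of Eif2s3y, as in male libraries. WT F4 stood apart from the other WT libraries. Over the 3340 most GC-rich genes tested, its mean deviation from the mean of all libraries was 0.283 (log2), against -0.493 to -0.33 in the other WT, 0.121 to 0.33 in vehicle and -0.186 to 0.133 in TMB libraries. Nothing in the labels tells it from the other WT libraries, so it was kept, and calls of receptor genes are given with and without it. Nothing says that mice of different groups shared a litter or a day.

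The levels of the receptor genes spanned 2 orders of magnitude. Set per kilobase (kb) of exon, Gabrr1 (GABA-A rho1) ranked first, with 33.0 ± 1.18 CPM (counts scaled to the size of the library) per kb in TMB, 34.5 ± 4.97 in vehicle and 44.2 ± 1.14 in WT (mean ± SD, n = 5, 4 and 4). Gabrr2, Gabbr1 and Glrb were also among the most abundant, with means over all libraries from 21.8 to 31.7 CPM per kb, and the spread within WT was large enough that the order of Gabbr1 and Glrb is not resolved there. Of the glutamate receptor genes in the set, which lacks Grik1 and Grm6, Grik5 had the highest mean over all libraries, followed by Gria4 and Gria2. Grik5 had 16.8 ± 2.46 CPM per kb in TMB, 22.5 ± 1.25 in vehicle and 13.4 ± 4.68 in WT. It led only in vehicle, since Gria4 had 17.0 ± 1.39 in TMB and 18.3 ± 3.72 in WT. In WT Gria2 (15.2 ± 4.42) was also above Grik5, and the spreads are too large to resolve these orders. At the other end, Grik4, Grin3b and Gabra5 had means of 0.313 to 0.599 CPM per kb. Only Grin3b and Gabra5 had fewer than 10 counts in some library, in 1 and 4 of 13 libraries, and all 46 genes were tested.

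Against WT, 1 of 46 receptor genes differed in TMB retinas and 22 in vehicle retinas (edgeR quasi-likelihood test, Benjamini-Hochberg adjusted p under 0.05 over 16782 genes). In TMB retinas none was higher and 1, Gabrr1, was lower (2.17%), beside 4.51% of all genes tested that were higher and 5.02% lower. In vehicle retinas 5 receptor genes were higher (10.9%) and 17 lower (37%), beside 15.7% of all genes that were higher and 18.3% that were lower. The genes that fell in vehicle retinas included Gria2, Gria3, Grin2a, Grm8, Gabra3, Gabra5, Gabrb1, Gabrb2, Gabrg1, Gabrg3, Gabrr1, Gabrr3, Glra2, Glra3 and Glrb, and those that rose were Grik4, Grik5, Grin2c, Grm2 and Glra1. In bulk RNA, fewer cells of a type and less RNA per cell cannot be told apart.

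**Figure D1:**
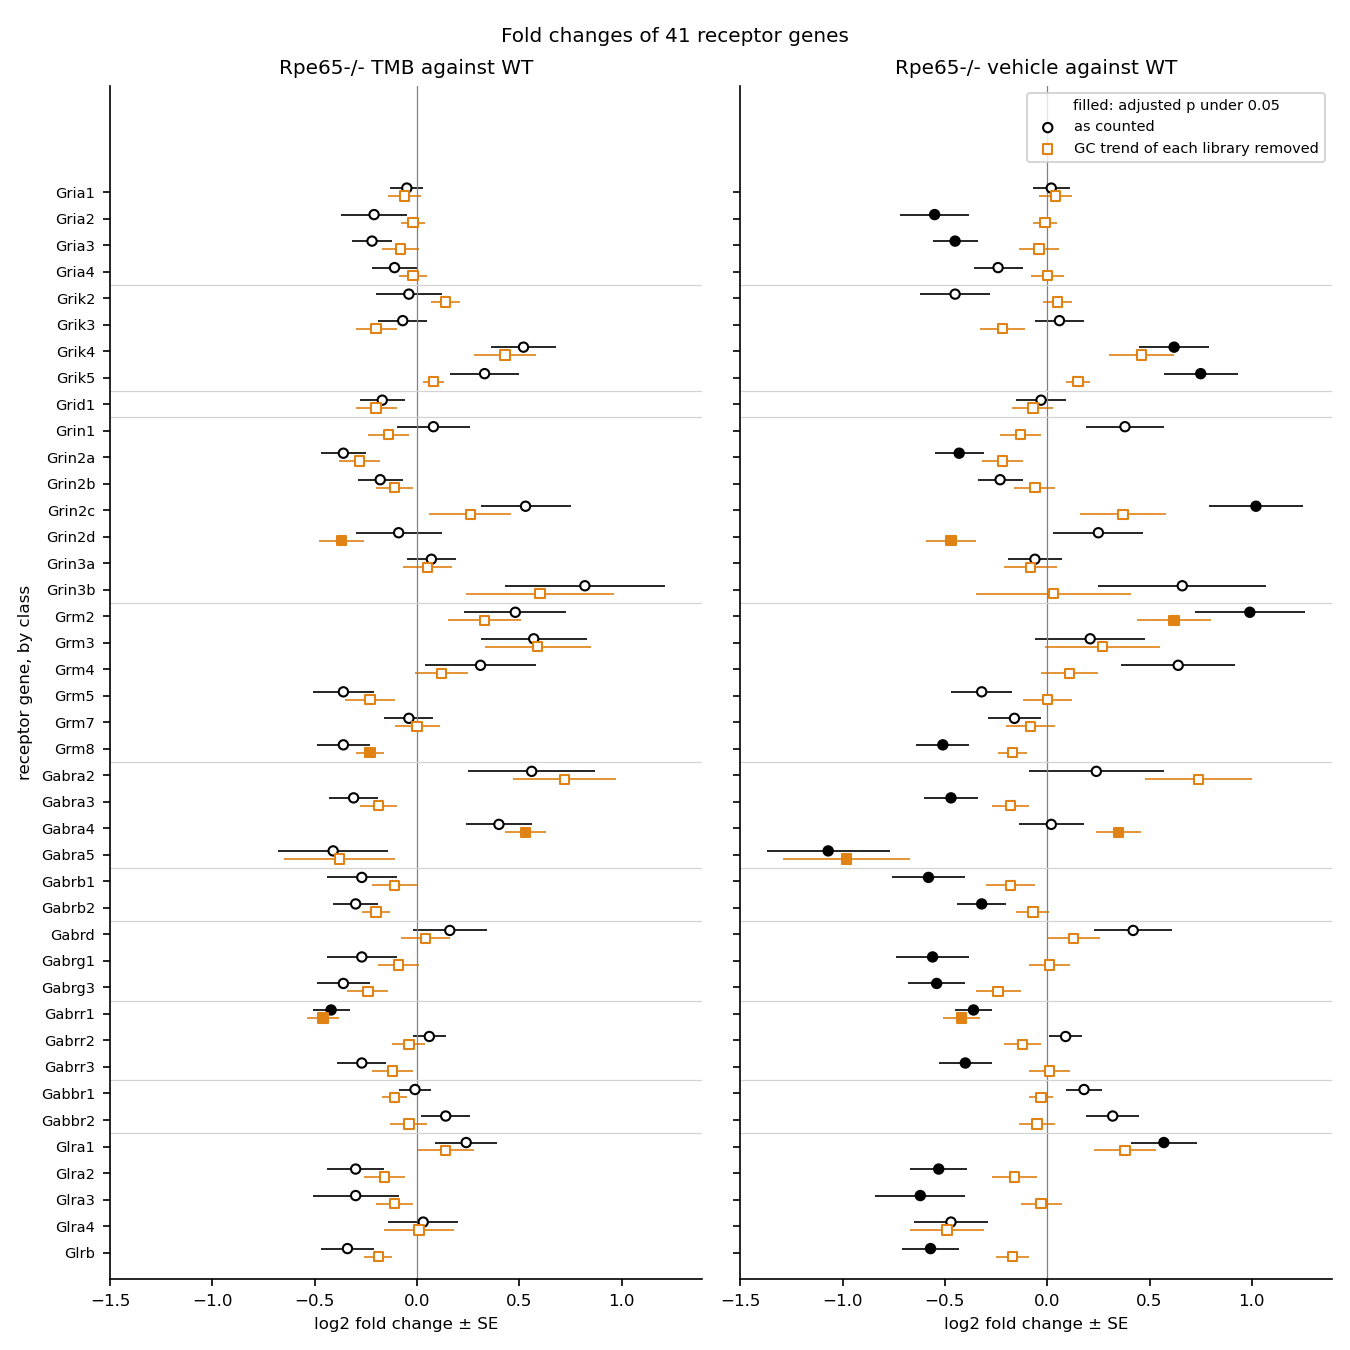
Log2 fold change ± SE of 41 receptor genes in Rpe65-/- TMB (left) and Rpe65-/- vehicle retinas (right) against WT, grouped by class, as counted (circles) and after removal of each library's GC trend (squares). Filled symbols passed an adjusted p of 0.05: 1 circle on the left and 20 on the right, and 4 squares on the left and 5 on the right.

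The direction of a receptor gene followed the GC content of its transcript. Of the 21 receptor genes with a transcript GC under 45%, 15 fell and none rose in vehicle retinas, while of the 8 with a GC of 55% or more, 3 rose and none fell. The same held for genes at large: 43.3% of all tested genes under 45% GC fell and 40.3% of those at 55% or more rose. Across the 46 genes the log2 fold change of TMB against vehicle correlated with transcript GC at r = -0.75, of TMB against WT at r = 0.58 and of vehicle against WT at r = 0.80, beside -0.54, 0.20 and 0.46 across all genes with a known GC. These are correlations across genes of the same libraries, given as a description.

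**Figure D2:**
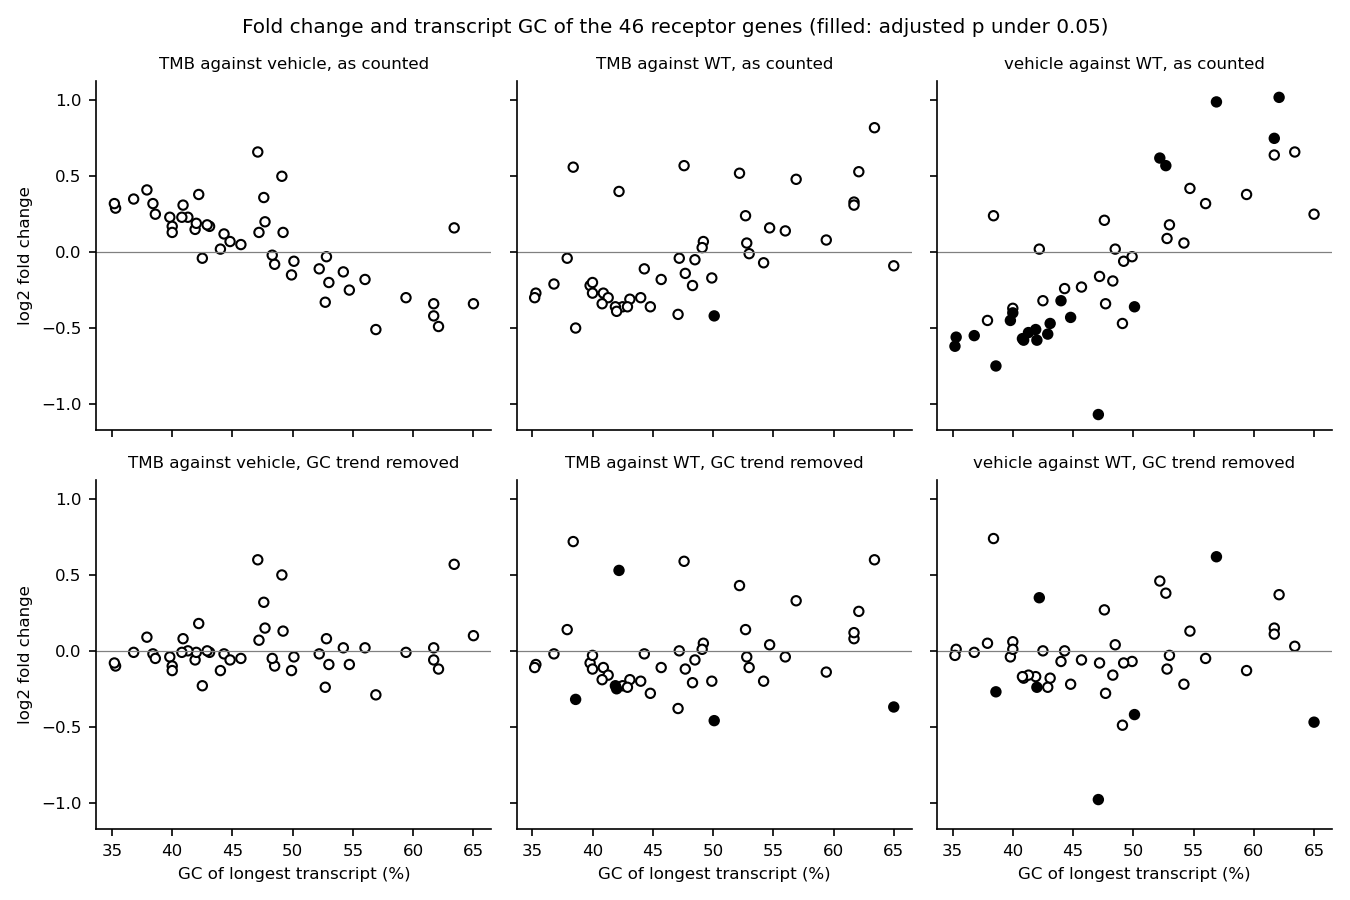
Log2 fold change of the 46 receptor genes (vertical axis) against the GC percentage of the longest transcript (horizontal axis) for TMB against vehicle, TMB against WT and vehicle against WT, as counted (top row) and after removal of each library's GC trend (bottom row). Filled points passed an adjusted p of 0.05. The slope seen in the top row, with r from -0.75 to 0.80, is near 0 in the bottom row, with r from 0.08 to 0.18.

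The trend was visible in single libraries. Relative to the mean over all libraries, the median deviation of the 21 GC-poor receptor genes was 0.03, -0.15, -0.10, 0.08 and 0.06 (log2) in TMB F1, F3, F4, M5 and M6. It was -0.25, -0.10, -0.33 and -0.16 in vehicle F1, F2, M4 and M5, and 0.37, 0.25, 0.49 and -0.25 in WT M1, M2, F3 and F4. WT F4 thus lay among the vehicle libraries, and the TMB libraries overlapped the vehicle libraries and lay below the other WT libraries. For the 8 GC-rich receptor genes the medians were -0.43 to 0.18 in TMB, 0.23 to 0.38 in vehicle and -0.47, -0.45, -0.41 and 0.28 in the 4 WT libraries. All tested genes of the same GC classes moved alike, at -0.09 to 0.16, -0.24 to -0.11 and 0.28, 0.23, 0.35 and -0.22 for GC-poor genes in TMB, vehicle and the 4 WT libraries.

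**Figure D3:**
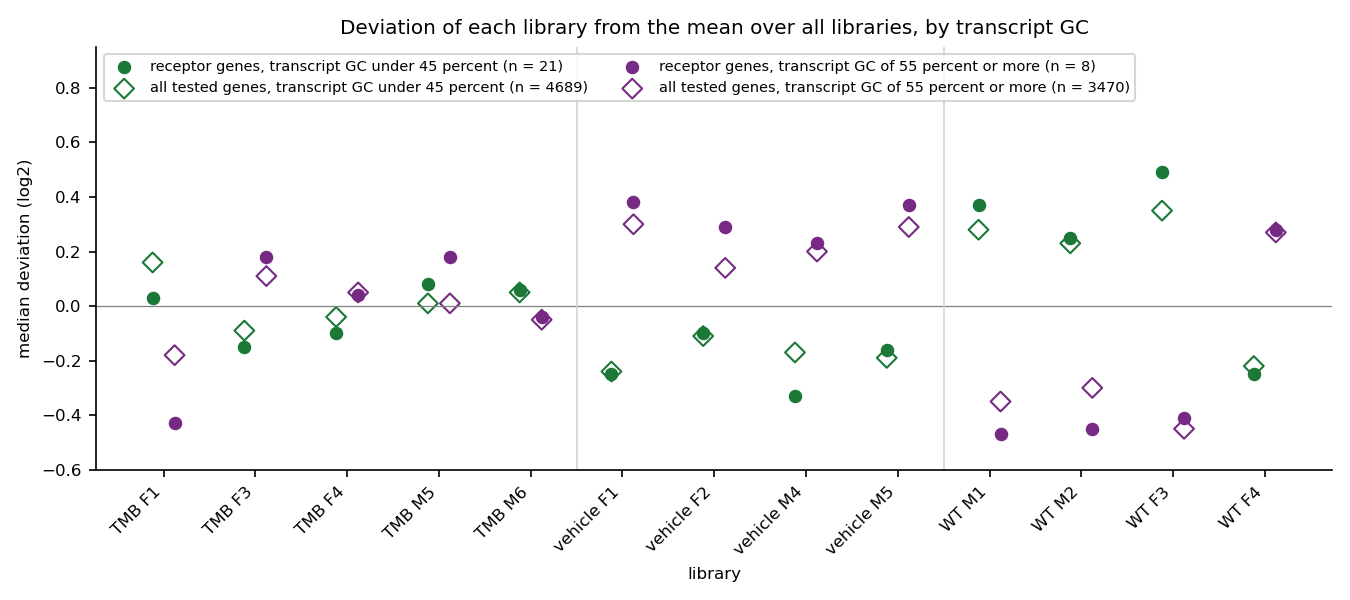
Median deviation of each library from the mean of a gene over all 13 libraries (log2 CPM, vertical axis), for receptor genes (filled circles) and all tested genes (open diamonds) with a transcript GC under 45% (green) or of 55% or more (purple). WT M1, M2 and F3 have GC-poor genes above 0 and GC-rich genes below 0, and WT F4 and the 4 vehicle libraries have the opposite order.

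Each class is therefore given as counted and again after a cubic trend in transcript GC had been taken out of every library. After this, 6 of 46 receptor genes differed from WT in TMB retinas, 1 higher and 5 lower, beside 6.45% and 9.36% of all genes. In vehicle retinas 7 differed, 2 higher and 5 lower, beside 7.78% and 11.6% of all genes. Of the 22 genes called as counted in vehicle retinas, 5 were among the 7, in the same direction, Grm2, Gabra5 and Gabrr1 among them. Gabra4, Gabrr1 and Grin2d were called in both Rpe65-/- groups, again in the same direction. Whether the trend arose in library preparation or in the tissue was not tested, and the correction takes out a change of either kind that runs with GC.

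Leaving out WT F4 raised the counts of both Rpe65-/- groups, while the GC correction raised the count of TMB and lowered that of vehicle retinas. Without WT F4, 26 receptor genes differed in TMB retinas (6 higher, 20 lower, beside 19.6% and 18.4% of all genes) and 36 in vehicle retinas (12 higher, 24 lower, beside 28.5% and 27.1%). With WT F4 left out and the GC trend removed together, 7 differed in TMB retinas (1 higher, 6 lower, beside 8.27% and 11.2% of all genes) and 8 in vehicle retinas (2 higher, 6 lower, beside 12.6% and 15.4%). All 22 genes called in vehicle retinas with WT F4 were also called without it, in the same direction. Without WT M1 or without WT F3 the count in vehicle retinas was 14 (5 higher, 9 lower) in each case. The share of all genes in these fits is not given here, so a drop particular to receptor genes cannot be read from it.

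AMPA receptors carry the fast glutamate signal, and the edited GluA2 subunit encoded by Gria2 keeps them impermeable to calcium. Gria2 had 247, 183, 175, 210.2 and 213 CPM in TMB, 165, 171, 162 and 149 CPM in vehicle and 245, 257, 303 and 141 CPM in WT libraries, and its log2 fold change against WT was -0.21 ± 0.16 (SE, adjusted p = 0.442) in TMB and -0.55 ± 0.17 (SE, adjusted p = 0.0252) in vehicle retinas. The TMB libraries all lay above the vehicle libraries, and WT F4 lay below every Rpe65-/- library. Gria3, which encodes GluA3, had 49.2, 49.01, 45.8, 53.4 and 51.6 CPM in TMB, 45.9, 47.5, 37.6 and 39.3 CPM in vehicle and 62.6, 56.1, 66.3 and 47.003 CPM in WT libraries. Its log2 fold change was -0.22 ± 0.10 (SE, adjusted p = 0.196) in TMB and -0.45 ± 0.11 (SE, adjusted p = 0.00976) in vehicle retinas, with WT F4 at the level of vehicle F1 and F2. The transcripts of both genes are GC-poor (36.8% and 39.8%), and with the GC trend removed the values were -0.01 ± 0.06 (SE, adjusted p = 0.899) and -0.04 ± 0.10 (SE, adjusted p = 0.821) in vehicle retinas. Gria1 and Gria4 were called in no comparison, with vehicle values of 0.02 ± 0.09 (SE, adjusted p = 0.849) and -0.24 ± 0.12 (SE, adjusted p = 0.132). The call of Gria2 was lost in 6 of 13 fits that left out a library (without vehicle F1, vehicle M4, vehicle M5, WT M1, WT M2 and WT F3), with an adjusted p of up to 0.0967. Without WT F4, 3 of the 4 AMPA genes fell in TMB and 3 in vehicle retinas, Gria4 joining Gria2 and Gria3 in both. In that fit 18.4% and 27.1% of all genes were lower.

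Kainate receptors of the retina are best known from cone OFF bipolar cells. Grik5 encodes the high-affinity subunit GluK5, which forms channels only together with a low-affinity subunit such as GluK2, the product of Grik2. Grik5 had 69.1, 102, 89.5, 93.1 and 80.01 CPM in TMB, 123, 109.8, 111 and 120.3 CPM in vehicle and 59.7, 58.8, 53.1 and 105 CPM in WT libraries. Every vehicle library lay above every TMB library and above every WT library, and WT F4 was 105 CPM against 53.1 to 59.7 in the other WT libraries. The log2 fold change was 0.33 ± 0.17 (SE, adjusted p = 0.235) in TMB and 0.75 ± 0.18 (SE, adjusted p = 0.00819) in vehicle retinas. Grik4, which encodes the other high-affinity subunit GluK4, had 3.29, 4.31, 3.67, 4.45 and 3.48 CPM in TMB, 4.00, 4.05, 3.92 and 4.56 CPM in vehicle and 2.47, 2.37, 2.68 and 3.22 CPM in WT libraries. Its log2 fold change was 0.52 ± 0.16 (SE, adjusted p = 0.0568) in TMB and 0.62 ± 0.17 (SE, adjusted p = 0.0141) in vehicle retinas. All Rpe65-/- libraries lay above all WT libraries in CPM, but TMB F1 and WT F4 both had 46 counts.

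Grik2, singled out after its values were seen, had 46.4, 38.1, 36.9, 44.3 and 43.5 CPM in TMB, 29.1, 33.5, 31.9 and 31.3 CPM in vehicle and 43.7, 49.5, 53.6 and 25.2 CPM in WT libraries. It showed the reverse order of Grik5, with the vehicle libraries below every TMB library and WT F4 lowest, and its log2 fold change was -0.04 ± 0.16 (SE, adjusted p = 0.881) in TMB and -0.45 ± 0.17 (SE, adjusted p = 0.0531) in vehicle retinas. Shares per kb of exon were taken over the 4 kainate genes in the set, without Grik1. Grik5 took 72.0 to 79.3% of their summed level in TMB, 82.3 to 84.1% in vehicle and 69.5, 67.5, 63.5 and 83.4% in the 4 WT libraries. With the GC trend removed, none of the 4 kainate genes was called in TMB or vehicle retinas, and the vehicle values were 0.05 ± 0.07 (SE, adjusted p = 0.664) for Grik2, -0.22 ± 0.11 (SE, adjusted p = 0.153) for Grik3, 0.46 ± 0.16 (SE, adjusted p = 0.0546) for Grik4 and 0.15 ± 0.06 (SE, adjusted p = 0.0762) for Grik5. With WT F4 left out as well, Grik4 was higher in vehicle retinas at 0.49 ± 0.18 (SE, adjusted p = 0.0495). Without WT F4 and as counted, Grik4 and Grik5 rose in TMB retinas, and in vehicle retinas Grik4 and Grik5 rose and Grik2 fell. Grik3 had a log2 fold change of 0.06 ± 0.12 (SE, adjusted p = 0.722) in vehicle retinas as counted. The printed stretch had the fewest codons ending in G or C in Grik2 and the most in Grik5. In vehicle retinas these 2 genes stood at the ends of this class as counted and between Grik3 and Grik4 after the correction. In TMB retinas Grik3 (-0.07) and Grik4 (0.52) stood at the ends as counted.

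NMDA receptors need GluN1, encoded by Grin1, and a GluN2 subunit that sets their kinetics and magnesium block. Grin2c, which encodes GluN2C, had the largest rise among the receptor genes in vehicle retinas as counted. The SE did not resolve it from Grm2 (0.99 ± 0.27), and with the GC trend removed Grm2 stood higher. Grin2c had 2.36, 3.32, 2.63, 3.86 and 3.55 CPM in TMB, 5.06, 3.98, 3.92 and 4.74 CPM in vehicle and 1.54, 1.74, 2.40 and 3.01 CPM in WT libraries. The vehicle libraries all lay above the TMB and WT libraries, but vehicle M4 (56 counts) and TMB M5 (59 counts) were not resolved. The log2 fold change against WT was 0.53 ± 0.22 (SE, adjusted p = 0.148) in TMB and 1.02 ± 0.23 (SE, adjusted p = 0.00609) in vehicle retinas. TMB against vehicle was not called, at -0.49 ± 0.21 (SE, adjusted p = 0.257). Grin2a, which encodes GluN2A, had 15.8, 18.1, 15.4, 17.01 and 20.2 CPM in TMB, 17.1, 15.1, 17.6 and 16.4 CPM in vehicle and 21.7, 21.998, 26.2 and 19.1 CPM in WT libraries, with -0.36 ± 0.11 (SE, adjusted p = 0.0569) in TMB and -0.43 ± 0.12 (SE, adjusted p = 0.0164) in vehicle retinas. Of the 50-base words in its exons, 11.6% also occur in another gene, the processed transcript Gm7328 among them, and its call was lost without WT F3 (adjusted p = 0.0599). After the correction, Grin2c was 0.37 ± 0.21 (SE, adjusted p = 0.217) and Grin2a -0.22 ± 0.10 (SE, adjusted p = 0.145) in vehicle retinas.

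Grin2d, which encodes GluN2D and has the most GC-rich transcript of the set, changed sign with the correction and was singled out for that. It had 6.86, 12.4, 10.4, 11.6 and 9.43 CPM in TMB, 12.1, 13.1, 12.1 and 13.9 CPM in vehicle and 8.11, 9.72, 8.17 and 17.02 CPM in WT libraries, so that WT F4 was the highest of all libraries and the other WT libraries were below every vehicle library. The log2 fold change was -0.09 ± 0.21 (SE, adjusted p = 0.813) in TMB and 0.25 ± 0.22 (SE, adjusted p = 0.382) in vehicle retinas as counted, and -0.37 ± 0.11 (SE, adjusted p = 0.0345) and -0.47 ± 0.12 (SE, adjusted p = 0.0108) with the GC trend removed. Without WT F4 and as counted it was called higher in vehicle retinas, at 0.56 ± 0.16 (SE, adjusted p = 0.00823). Grin1, Grin2b, Grin3a and Grin3b were called in no comparison, with log2 fold changes of -0.23 to 0.66 in vehicle retinas. Grin3b was at 0.154 to 2.12 CPM and shares 23.6% of its 50-base words with other genes, Tmem259 among them. Without WT F4, 4 of the 7 NMDA genes differed in TMB retinas (2 higher, 2 lower, beside 19.6% and 18.4% of all genes). In vehicle retinas 6 differed (4 higher, 2 lower, beside 28.5% and 27.1%).

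Delta receptors bind cerebellins and organise synapses more than they pass current. Grid1, which encodes one of them, had 20.7, 22.7, 19.7, 20.9 and 20.2 CPM in TMB, 24.7, 24.8, 18.9 and 23.9 CPM in vehicle and 22.9, 21.3, 21.8 and 28.1 CPM in WT libraries, and its log2 fold change was -0.17 ± 0.11 (SE, adjusted p = 0.333) in TMB and -0.03 ± 0.12 (SE, adjusted p = 0.868) in vehicle retinas. The groups overlapped. Without WT F4 it was -0.08 ± 0.10 (SE, adjusted p = 0.573) and 0.07 ± 0.11 (SE, adjusted p = 0.583), not called in either.

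Metabotropic glutamate receptors act through G proteins. Grm2, which encodes the presynaptic group II receptor mGluR2, had 6.64, 14.5, 12.4, 14.1 and 11.3 CPM in TMB, 19.1, 16.3, 15.8 and 16.01 CPM in vehicle and 9.11, 6.54, 4.87 and 13.3 CPM in WT libraries. All vehicle libraries lay above all TMB and WT libraries, and TMB F1 and 3 of the 4 WT libraries lay below 10 CPM. The log2 fold change was 0.48 ± 0.25 (SE, adjusted p = 0.247) in TMB and 0.99 ± 0.27 (SE, adjusted p = 0.0135) in vehicle retinas, and after removal of the GC trend the vehicle value was still called, at 0.62 ± 0.18 (SE, adjusted p = 0.0259). Of its 50-base words, 8.53% also occur in Gm28111. Grm8, which encodes the group III receptor mGluR8, had 34.4, 29.4, 31.9, 31.7 and 34.3 CPM in TMB, 27.4, 31.5, 29.98 and 27.8 CPM in vehicle and 44.8, 40.1, 51.7 and 29.98 CPM in WT libraries. WT M1, M2 and F3 lay above every Rpe65-/- library, and WT F4 lay inside both Rpe65-/- groups. The log2 fold change of Grm8 was -0.36 ± 0.13 (SE, adjusted p = 0.0805) in TMB and -0.51 ± 0.13 (SE, adjusted p = 0.0118) in vehicle retinas as counted, and -0.23 ± 0.07 (SE, adjusted p = 0.0348) and -0.17 ± 0.07 (SE, adjusted p = 0.12) with the GC trend removed, so that it was called in vehicle retinas as counted and in TMB retinas after the correction. The difference between these groups did not pass the test (TMB against vehicle -0.06 ± 0.07 (SE, adjusted p = 0.746) with the trend removed). Grm3, Grm4, Grm5 and Grm7 were called in no comparison, with vehicle values of -0.32 to 0.64. Without WT F4, 4 of the 7 genes differed in TMB retinas and 4 in vehicle retinas, 2 higher (Grm2 and Grm4) and 2 lower (Grm5 and Grm8) in each. In that fit 19.6% of all genes were higher and 18.4% lower in TMB, and 28.5% and 27.1% in vehicle retinas.

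Among GABA-A receptor genes the changes in vehicle retinas were in 1 direction as counted with all libraries: of 15 measured, 10 fell (66.7%, beside 18.3% of all genes and 43.3% of genes under 45% GC), 5 were not called and none rose. With the GC trend removed, 1 was higher and 3 were lower in TMB retinas, beside 6.45% and 9.36% of all genes, and 1 was higher and 4 were lower in vehicle retinas, beside 7.78% and 11.6%. Without WT F4 none was higher and 10 were lower in TMB retinas, beside 19.6% and 18.4% of all genes. In vehicle retinas 1 was then higher and 11 were lower, beside 28.5% and 27.1%. Most of these channels hold alpha, beta and gamma subunits. Gabrg1, which encodes gamma1, had 16.1, 12.1, 13.2, 16.7 and 13.9 CPM in TMB, 11.7, 11.2, 11.6 and 12.6 CPM in vehicle and 19.5, 18.4, 21.3 and 10.2 CPM in WT libraries, with a vehicle log2 fold change of -0.56 ± 0.18 (SE, adjusted p = 0.0309) as counted and 0.01 ± 0.10 (SE, adjusted p = 0.948) with the trend removed. Gabrg3, which encodes gamma3, had 22.1, 20.5, 24.5, 25.3 and 23.6 CPM in TMB, 17.9, 20.6, 21.9 and 21.6 CPM in vehicle and 26.9, 32.8, 37.5 and 22.1 CPM in WT libraries, with -0.54 ± 0.14 (SE, adjusted p = 0.0128) as counted and -0.24 ± 0.11 (SE, adjusted p = 0.119) with the trend removed. The TMB values were -0.27 ± 0.17 (SE, adjusted p = 0.343) for Gabrg1 and -0.36 ± 0.13 (SE, adjusted p = 0.103) for Gabrg3. Gabrd, whose delta subunit takes the place of gamma outside synapses, had 0.42 ± 0.19 (SE, adjusted p = 0.0956) in vehicle retinas. The call of Gabrg1 was lost in 7 of 13 fits that left out a library (without vehicle F1, vehicle F2, vehicle M4, vehicle M5, WT M1, WT M2 and WT F3), with an adjusted p of up to 0.108. Without WT F4, Gabrd was called higher in vehicle retinas (0.64 ± 0.16 (SE, adjusted p = 0.00238)), and Gabrg1 and Gabrg3 fell in both Rpe65-/- groups.

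The beta subunit genes Gabrb1 and Gabrb2 fell in vehicle retinas. Gabrb1 had 22.6, 22.6, 20.4, 21.8 and 26.03 CPM in TMB, 18.1, 21.8, 18.0001 and 15.5 CPM in vehicle and 28.1, 26.1, 37.6 and 17.5 CPM in WT libraries, and Gabrb2 had 44.9, 42.4, 38.99, 47.1 and 44.4 CPM in TMB, 46.1, 43.7, 38.5 and 43.2 CPM in vehicle and 59.6, 54.1, 60.2 and 40.6 CPM in WT libraries. Their vehicle log2 fold changes were -0.58 ± 0.18 (SE, adjusted p = 0.0251) and -0.32 ± 0.12 (SE, adjusted p = 0.0425) as counted, and -0.18 ± 0.12 (SE, adjusted p = 0.288) and -0.07 ± 0.08 (SE, adjusted p = 0.553) with the trend removed. WT F4 lay within the range of the Rpe65-/- libraries for both. The TMB values were -0.27 ± 0.17 (SE, adjusted p = 0.332) for Gabrb1 and -0.30 ± 0.11 (SE, adjusted p = 0.0972) for Gabrb2. The call of Gabrb1 was lost in 6 of 13 fits without a library (without vehicle F1, vehicle M4, vehicle M5, WT M1, WT M2 and WT F3, adjusted p up to 0.101) and that of Gabrb2 in 10 (without TMB F3, TMB M5, TMB M6, vehicle F1, vehicle F2, vehicle M4, vehicle M5, WT M1, WT M2 and WT F3, adjusted p up to 0.135). Without WT F4 both were called in TMB retinas too.

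The alpha subunits went different ways. Gabra3, which encodes alpha3, had 53.8, 50.6, 55.7, 58.5 and 59.8 CPM in TMB, 54.8, 44.9, 45.3 and 53.1 CPM in vehicle and 80.4, 68.1, 76.7 and 49.9 CPM in WT libraries, and its log2 fold change was -0.31 ± 0.12 (SE, adjusted p = 0.121) in TMB and -0.47 ± 0.13 (SE, adjusted p = 0.0134) in vehicle retinas. Gabra5, which encodes alpha5 and is the scarcest receptor gene per kb, had 1.14, 0.636, 0.856, 1.05 and 1.02 CPM in TMB, 0.53, 0.597, 0.77 and 0.493 CPM in vehicle and 0.927, 1.31, 1.72 and 1.05 CPM in WT libraries. It fell by the most, with -1.07 ± 0.30 (SE, adjusted p = 0.017) in vehicle retinas as counted and -0.98 ± 0.31 (SE, adjusted p = 0.0332) with the GC trend removed, at 8 to 11 counts in the vehicle libraries. Its TMB value was -0.41 ± 0.27 (SE, adjusted p = 0.353). The call of Gabra3 was lost without WT M1 (adjusted p = 0.0527) and that of Gabra5 without vehicle F1, vehicle M5 or WT F3 (adjusted p up to 0.0654). Without WT F4, Gabra3 fell in both groups, at -0.43 ± 0.08 (SE, adjusted p = 0.000989) in TMB and -0.60 ± 0.09 (SE, adjusted p = 3.5e-05) in vehicle retinas, and Gabra5 fell in vehicle retinas, at -1.14 ± 0.34 (SE, adjusted p = 0.00908), while its TMB value of -0.49 ± 0.31 (SE, adjusted p = 0.229) was not called.

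Gabra4, singled out because against WT it was called only in fits with the GC trend removed, encodes alpha4, a partner of delta. It had 22.1, 19.8, 17.7, 20.8 and 21.8 CPM in TMB, 14.4, 19.2, 14.01 and 15.3 CPM in vehicle and 16.4, 18.2, 17.4 and 10.2 CPM in WT libraries, and its log2 fold change as counted was 0.40 ± 0.16 (SE, adjusted p = 0.121) in TMB and 0.02 ± 0.16 (SE, adjusted p = 0.942) in vehicle retinas. With the trend removed these were 0.53 ± 0.10 (SE, adjusted p = 0.00204) and 0.35 ± 0.11 (SE, adjusted p = 0.0343), both higher than WT. Its transcript is GC-poor (42.2%), and removal of a trend that lowers such genes raises their values by construction. With WT F4 also left out, the TMB value was called (0.47 ± 0.11 (SE, adjusted p = 0.005)) and the vehicle value was not (0.29 ± 0.11 (SE, adjusted p = 0.0616)). Without WT F4 and as counted, neither value against WT was called (0.24 ± 0.12 (SE, adjusted p = 0.114) in TMB and -0.14 ± 0.12 (SE, adjusted p = 0.336) in vehicle retinas). Gabra4 and Gabrb1 lie on opposite strands and share 46 exon bases.

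Gabra2, which encodes alpha2, was singled out for its spread. It had 65.1, 20.3, 37.4, 45.7 and 63.9 CPM in TMB, 35.4, 38.4, 21.2 and 53.5 CPM in vehicle and 37.9, 31.4, 37.1 and 19.3 CPM in WT libraries, so that the highest library was 3.20 times the lowest within TMB, 2.52 times within vehicle and 1.97 times within WT. The SD of log2 CPM was 0.679 in TMB, 0.543 in vehicle and 0.446 in WT, while the other 45 receptor genes had medians of 0.141, 0.134 and 0.307. Among the 5113 tested genes with a mean of 20 to 80 CPM, 99.5% had a smaller SD within TMB, 99.0% within vehicle and 90.6% within WT. The high and low libraries followed neither sex nor group, and Gabra2 was called in no comparison with or without WT F4. Its values were 0.56 ± 0.31 (SE, adjusted p = 0.269) in TMB and 0.24 ± 0.33 (SE, adjusted p = 0.576) in vehicle retinas. It was called higher than WT only on each pair of groups alone with the GC trend removed (0.73, adjusted p = 0.0304 in TMB and 0.74, adjusted p = 0.0343 in vehicle retinas).

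**Figure D4:**
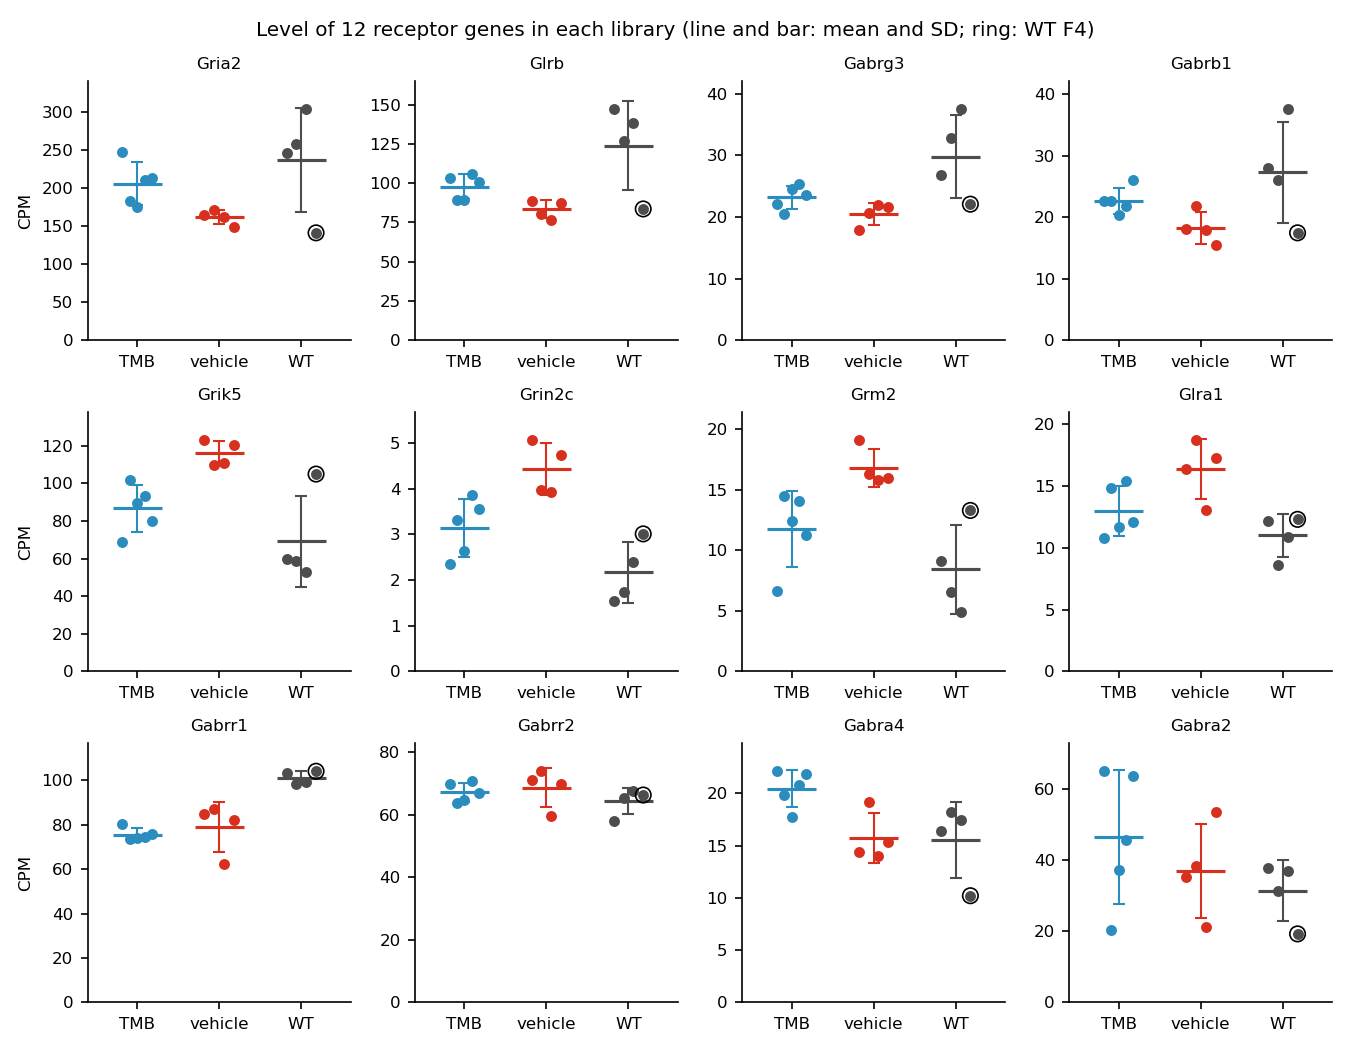
CPM (vertical axis, from 0) of 12 receptor genes in each library, with Rpe65-/- TMB (n = 5), Rpe65-/- vehicle (n = 4) and WT (n = 4) from left to right. Lines and bars are the mean and SD, and the ring marks WT F4, which lies among or next to the vehicle libraries for Gria2, Glrb, Gabrg3, Gabrb1 and Grik5, and with the other WT libraries for Gabrr1 and Gabrr2.

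GABA-A channels can also be made of Gabrr subunits alone, and these channels shape the output of bipolar cell terminals. Gabrr1, at chr4:33132521-33163588, was the only receptor gene called in both Rpe65-/- groups as counted. It had 80.1, 73.4, 74.004, 74.2 and 75.97 CPM in TMB, 84.6, 86.9, 62.1 and 82.004 CPM in vehicle and 103, 98.3, 99.3 and 104 CPM in WT libraries. Every WT library, WT F4 included, lay above every TMB and vehicle library. The log2 fold change was -0.42 ± 0.09 (SE, adjusted p = 0.00671) in TMB and -0.36 ± 0.09 (SE, adjusted p = 0.0117) in vehicle retinas as counted, and -0.46 ± 0.08 (SE, adjusted p = 0.000849) and -0.42 ± 0.09 (SE, adjusted p = 0.00262) with the GC trend removed. The transcript has a GC of 50.1%, near the middle of the set, and both calls held in all 13 fits that left out a library. Each was called in 24 of 25 alternatives, the exceptions being the fit of vehicle and WT alone for vehicle retinas (-0.35, adjusted p = 0.0513) and the replicate block for TMB retinas (-0.41, adjusted p = 0.08). Gabrr2, which neighbours Gabrr1 at chr4:33062999-33095865 and shares 57 of its 50-base words, was called in no comparison, with 0.06 ± 0.08 (SE, adjusted p = 0.645) in TMB and 0.09 ± 0.08 (SE, adjusted p = 0.389) in vehicle retinas. Gabrr3, the rho3 gene, had 39.3, 36.9, 39.2, 42.9 and 41.2 CPM in TMB, 37.96, 42.5, 29.7 and 35.4 CPM in vehicle and 53.7, 46.1, 55.7 and 36.99 CPM in WT libraries. Its vehicle log2 fold change was -0.40 ± 0.13 (SE, adjusted p = 0.0283) as counted and 0.01 ± 0.10 (SE, adjusted p = 0.971) with the trend removed, and its TMB value was -0.27 ± 0.12 (SE, adjusted p = 0.177). WT F4 lay among the Rpe65-/- libraries, and the call was lost in 6 of 13 fits that left out a library (without vehicle F1, vehicle M4, vehicle M5, WT M1, WT M2 and WT F3, adjusted p up to 0.102). Without WT F4, Gabrr1 and Gabrr3 fell in both Rpe65-/- groups.

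The GABA-B receptor is a dimer in which Gabbr1 encodes the subunit that binds GABA and Gabbr2 the one that couples to the G protein. Gabbr1 had 170.1, 196, 203, 198 and 196 CPM in TMB, 233, 220.4, 201 and 228 CPM in vehicle and 186, 178, 187 and 226 CPM in WT libraries, and its log2 fold change was -0.01 ± 0.08 (SE, adjusted p = 0.919) in TMB and 0.18 ± 0.09 (SE, adjusted p = 0.11) in vehicle retinas. Gabbr2 had 0.14 ± 0.12 (SE, adjusted p = 0.481) in TMB and 0.32 ± 0.13 (SE, adjusted p = 0.0606) in vehicle retinas. Neither passed the test with all libraries, and without WT F4 both were called higher in vehicle retinas, at 0.26 ± 0.07 (SE, adjusted p = 0.00415) and 0.42 ± 0.11 (SE, adjusted p = 0.00456). After the correction the vehicle values were -0.03 ± 0.06 (SE, adjusted p = 0.798) and -0.05 ± 0.09 (SE, adjusted p = 0.732).

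Glycine receptors combine an alpha subunit with the beta subunit of Glrb, which anchors them to gephyrin. Glrb had 103, 89.2, 89.04, 106 and 101 CPM in TMB, 88.5, 80.7, 76.4 and 87.4 CPM in vehicle and 147, 127, 138 and 83.6 CPM in WT libraries, and its log2 fold change was -0.34 ± 0.13 (SE, adjusted p = 0.109) in TMB and -0.57 ± 0.14 (SE, adjusted p = 0.00827) in vehicle retinas as counted, and -0.19 ± 0.07 (SE, adjusted p = 0.0955) and -0.17 ± 0.08 (SE, adjusted p = 0.126) with the GC trend removed. Glra1, which encodes the main adult alpha subunit of the spinal cord, had 10.8, 14.8, 11.7, 15.4 and 12.1 CPM in TMB, 16.4, 18.7, 13.03 and 17.3 CPM in vehicle and 12.2, 8.60, 10.9 and 12.3 CPM in WT libraries. Its log2 fold change was 0.24 ± 0.15 (SE, adjusted p = 0.327) in TMB and 0.57 ± 0.16 (SE, adjusted p = 0.0144) in vehicle retinas, although vehicle M4 lay inside the TMB range. Glra2 had 25.1, 25.2, 24.4, 25.7 and 29.5 CPM in TMB, 21.9, 23.6, 19.1 and 24.3 CPM in vehicle and 39.1, 30.2, 36.2 and 22.98 CPM in WT libraries, and Glra3 had 70.6, 46.5, 48.8, 62.7 and 70.3 CPM in TMB, 43.2, 54.03, 45.2 and 49.4 CPM in vehicle and 87.4, 73.3, 97.1 and 37.3 CPM in WT libraries. Both fell in vehicle retinas, by log2 fold changes of -0.53 ± 0.14 (SE, adjusted p = 0.0141) and -0.62 ± 0.22 (SE, adjusted p = 0.0434), and WT F4 lay among or below the Rpe65-/- libraries for both.

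With the GC trend removed, none of the 5 glycine receptor genes was called in either Rpe65-/- group, and the vehicle values were 0.38 ± 0.15 (SE, adjusted p = 0.0778) for Glra1, -0.16 ± 0.11 (SE, adjusted p = 0.305) for Glra2 and -0.03 ± 0.10 (SE, adjusted p = 0.871) for Glra3. The TMB values as counted were -0.30 ± 0.14 (SE, adjusted p = 0.17) for Glra2 and -0.30 ± 0.21 (SE, adjusted p = 0.378) for Glra3. Glra4 had -0.47 ± 0.18 (SE, adjusted p = 0.0567) in vehicle retinas as counted and -0.49 ± 0.18 (SE, adjusted p = 0.0677) with the trend removed. Calls were lost for Glra1 without WT M2 (adjusted p = 0.0519), for Glra2 without WT M1 (adjusted p = 0.0551) and for Glra3 in 9 of 13 fits without a library (without TMB M5, TMB M6, vehicle F1, vehicle F2, vehicle M4, vehicle M5, WT M1, WT M2 and WT F3, adjusted p up to 0.154). Per kb of exon, Glra1 made up 19.3 to 29.2% of the 4 alpha subunits in TMB, 30.2 to 33.9% in vehicle and 17.2, 15.2, 15.6 and 27.3% in the 4 WT libraries. Without WT F4, 3 genes fell in TMB retinas, beside 18.4% of all genes. In vehicle retinas 4 then fell and Glra1 rose, beside 27.1% of all genes lower and 28.5% higher.

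Levels were also summed over the genes of a class. The 5 glycine receptor genes had together 216, 179, 178, 215 and 218 CPM in TMB, 174, 180.5, 157 and 182 CPM in vehicle and 290.1, 243, 287 and 161 CPM in WT libraries. The 4 AMPA receptor genes had 456, 383, 370.1, 427 and 428 CPM in TMB, 372, 367, 340.3 and 344 CPM in vehicle and 490.1, 474, 561 and 329 CPM in WT libraries. The 4 kainate receptor genes ran the other way, with 129, 159, 141, 156 and 139 CPM in TMB, 170.4, 159, 160.2 and 169.6 CPM in vehicle and 118, 123, 122 and 148 CPM in WT libraries. Median log2 fold changes in TMB retinas were -0.16 for AMPA, 0.14 for kainate, 0.07 for NMDA, -0.04 for metabotropic, -0.27 for all GABA-A, 0.06 for GABA-B and -0.30 for glycine receptor genes, beside -0.003 over all genes tested. In vehicle retinas they were -0.34, 0.34, 0.25, -0.16, -0.40, 0.25 and -0.53 in the same order, beside 0.017 over all genes. With the GC trend removed, the median over the 46 genes was -0.10 in TMB and -0.06 in vehicle retinas, beside -0.021 and -0.018 over all genes.

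**Figure D5:**
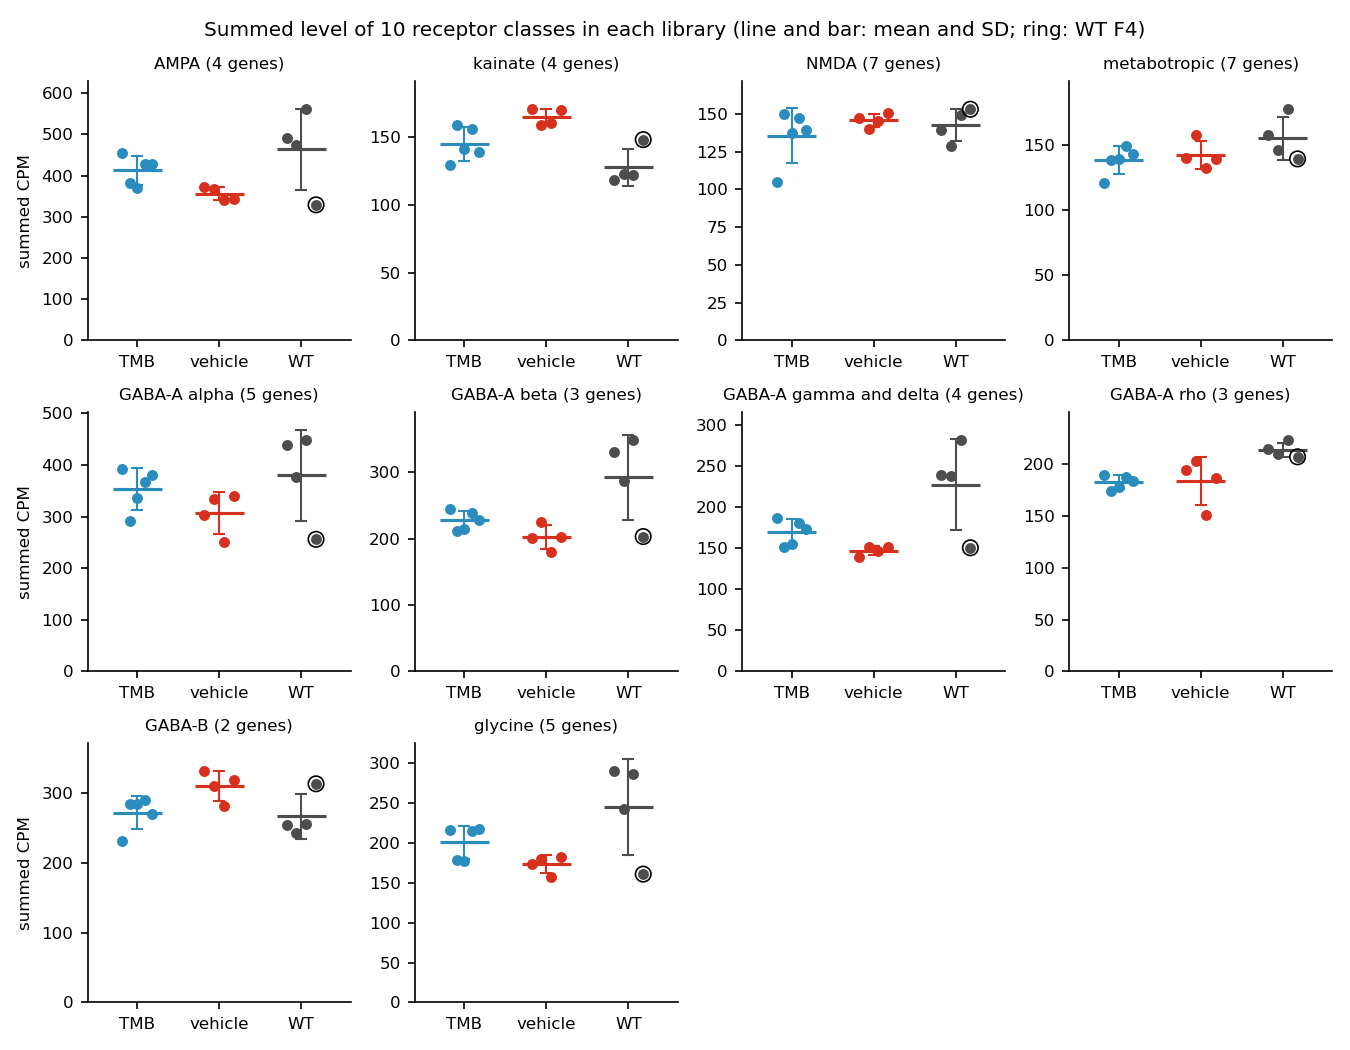
Summed CPM (vertical axis, from 0) of the genes in each of 10 receptor classes in each library, with Rpe65-/- TMB (n = 5), Rpe65-/- vehicle (n = 4) and WT (n = 4) from left to right. Lines and bars are the mean and SD, and the ring marks WT F4, which has the lowest AMPA sum of all libraries (329 CPM) and lies apart from the other WT libraries in the kainate, beta, gamma with delta, GABA-B and glycine classes.

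Between TMB and vehicle retinas no receptor gene was called by edgeR (0 of 46, 9 at an unadjusted p under 0.05), and DESeq2 and limma called none either. This stands beside 0% of all genes higher and 0% lower in the same fit, with 3064 at an unadjusted p under 0.05. The median log2 fold change of the 46 genes was 0.13, beside 0.001 over all genes. Of the 21 GC-poor genes 20 had a value above 0, and of the 8 GC-rich genes 7 had a value below 0. Gabra4 (0.38 ± 0.15 (SE, adjusted p = 0.254)), Grik2 (0.41 ± 0.16 (SE, adjusted p = 0.254)), Gria2 (0.35 ± 0.16 (SE, adjusted p = 0.275)), Glrb (0.23 ± 0.13 (SE, adjusted p = 0.321)), Grik5 (-0.42 ± 0.17 (SE, adjusted p = 0.254)) and Gabbr1 (-0.20 ± 0.08 (SE, adjusted p = 0.257)) are named because other fits called them. With only these 2 groups in the fit, Gabra4, Grik2, Gria2 and Glrb were higher and Grik5 lower (5 of 46, beside 7.11% of genes higher and 7.6% lower). Without WT F4 in the common estimate of the spread, the same 5 and Gabbr1, which was lower, were called (6 of 46, beside 8.02% higher and 8.02% lower). In the first of these genes, Gabra4, TMB and vehicle libraries overlapped at 17.7 CPM in TMB F4 and 19.2 CPM in vehicle F2.

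With the GC trend removed, 0 of 46 receptor genes were called between TMB and vehicle by edgeR, 1 at an unadjusted p under 0.05, beside 0.0119% of all genes higher and 0% lower. With the trend removed, none was called with only the 2 groups in the fit or without WT F4 either. The values were then 0.18 ± 0.10 (SE, adjusted p = 0.422) for Gabra4, 0.09 ± 0.07 (SE, adjusted p = 0.568) for Grik2, -0.01 ± 0.06 (SE, adjusted p = 0.954) for Gria2, -0.01 ± 0.07 (SE, adjusted p = 0.951) for Glrb and -0.06 ± 0.05 (SE, adjusted p = 0.605) for Grik5. The 3 comparisons share their groups, so TMB against WT and TMB against vehicle are not independent readings of the TMB libraries.

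Genes that work with these receptors were counted from 8 lists of auxiliary subunits, scaffolds, transporters and metabolic enzymes. Of 60 genes tested, none rose and 2 fell in TMB retinas, beside 4.51% and 5.02% of all genes, and 14 rose (23.3%) and 8 fell (13.3%) in vehicle retinas, beside 15.7% and 18.3%. The count in vehicle retinas was 41 without WT F4 (25 higher, 16 lower, beside 28.5% and 27.1% of all genes). It was 6 to 9 without WT M1, WT M2, WT F3, vehicle F1 or vehicle M5, fits whose share of all genes is not given here. After the correction 1 rose and 3 fell in TMB retinas, beside 6.45% and 9.36% of all genes, and 4 rose and 1 fell in vehicle retinas, beside 7.78% and 11.6%. Between TMB and vehicle 0 of these genes were called by edgeR in either fit, with 10 at an unadjusted p under 0.05 in each, and DESeq2 and limma called none. In vehicle retinas the auxiliary subunits of AMPA receptors held 2 genes that rose (log2 fold change ± SE against WT), Cnih2 (0.79 ± 0.22, adjusted p = 0.0146) and Shisa6 (0.50 ± 0.14, adjusted p = 0.0187). Neto1 and Neto2, the auxiliary subunits of kainate receptors, had 0.37 ± 0.13, adjusted p = 0.0462 and -0.39 ± 0.14, adjusted p = 0.0394. Lhfpl4, which takes part in the clustering of GABA-A receptors, had 0.36 ± 0.11, adjusted p = 0.0266.

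Of the postsynaptic scaffold genes of excitatory synapses Homer1 had -0.58 ± 0.15, adjusted p = 0.011, while Shank1 (0.73 ± 0.22, adjusted p = 0.023), Grip2 (0.41 ± 0.14, adjusted p = 0.0314) and Shank3 (0.64 ± 0.22, adjusted p = 0.0377) rose in vehicle retinas. At inhibitory synapses, Gphn, which encodes gephyrin, had -0.25 ± 0.08, adjusted p = 0.0354, while Iqsec3 (0.44 ± 0.13, adjusted p = 0.0231) and Gabarap (0.30 ± 0.10, adjusted p = 0.0378) rose. The vesicular glutamate transporter Slc17a6 was lower in TMB (-0.53 ± 0.11, adjusted p = 0.00906) and in vehicle retinas (-0.74 ± 0.12, adjusted p = 0.00099). The glutamate transporters Slc1a2 and Slc1a7 had -0.35 ± 0.10, adjusted p = 0.0186 and 0.33 ± 0.12, adjusted p = 0.0413. The GABA transporter Slc6a11 (0.45 ± 0.12, adjusted p = 0.0143) and the glycine transporter Slc6a9 (0.53 ± 0.13, adjusted p = 0.00857) rose in vehicle retinas. Gad2, which makes GABA, had -0.47 ± 0.15, adjusted p = 0.0277, and Glul, the glutamine synthetase of Mueller glia, had 0.30 ± 0.11, adjusted p = 0.0398. Of the genes named here, Slc17a6 (-0.41 in TMB and -0.43 in vehicle retinas), Shisa6 (0.47 in vehicle) and Neto1 (0.79 in vehicle) were also called with the GC trend removed.

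Markers of retinal cell types were measured beside the receptors, and their counts stand beside the same shares of all genes, 4.51% higher and 5.02% lower in TMB and 15.7% and 18.3% in vehicle retinas. All 7 cone markers fell in both Rpe65-/- groups. Their summed levels were 112 to 169 CPM in TMB, 128 to 184 CPM in vehicle and 1247 to 1380.4 CPM in WT libraries. Of 7 rod markers 1 fell in TMB and 4 in vehicle retinas. Of 7 ganglion cell markers 4 fell in each, with 691 to 733 CPM in TMB, 591 to 778 CPM in vehicle and 863 to 925 CPM in WT libraries. Of 5 horizontal cell markers 1 fell in TMB retinas, and 2 fell and 1 rose in vehicle retinas. Bipolar markers, with 1 of 6 higher in TMB and 1 higher and 1 lower in vehicle retinas, summed to 1219.8 to 1435 CPM in TMB, 1181 to 1458 CPM in vehicle and 1275 to 1408 CPM in WT libraries, and amacrine markers to 845 to 1042, 890.4 to 1048 and 945 to 1004 CPM. Of 7 amacrine markers none was called in TMB retinas and 2 rose in vehicle retinas. Of 6 Mueller glia markers none was called in TMB and 4 rose in vehicle retinas, and of 6 microglia markers none was called in TMB and 4 rose in vehicle retinas. With the GC trend removed, the shares of all genes were 6.45% higher and 9.36% lower in TMB and 7.78% and 11.6% in vehicle retinas. The counts in vehicle retinas were then 2 lower for amacrine, 3 higher for Mueller glia and 1 higher for microglia markers. For rod and for ganglion cell markers they were 5 lower each. In TMB retinas 4 rod and 5 ganglion cell markers were lower after the correction.

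Markers of other cell types that the samples could hold were counted as well. Of 6 pigment epithelium markers 1 rose and 1 fell in TMB retinas, and 4 rose and 1 fell in vehicle retinas. With the GC trend removed, 4 rose and 1 fell in each of these groups. Of all genes, 6.45% were then higher and 9.36% lower in TMB, and 7.78% and 11.6% in vehicle retinas. The marker that fell was Rpe65 in each case. Their summed levels were 116 to 148 CPM in TMB, 92.5 to 444 CPM in vehicle and 47.9 to 91.7 CPM in WT libraries. Of 4 astrocyte markers 2 rose in TMB and 3 in vehicle retinas. They summed to 73.5 to 96.4 CPM in TMB, 68.7 to 120.4 CPM in vehicle and 37.8 to 49.98 CPM in WT libraries. The 2 lens markers tested were called in neither group, and lens markers summed to 1.48 to 60.2 CPM in TMB, 1.26 to 829 CPM in vehicle and 0.249 to 356 CPM in WT libraries. Of 5 markers of endothelium and pericytes none was called in TMB retinas, and 2 rose and 1 fell in vehicle retinas. Of 3 erythrocyte markers tested 2 fell in TMB retinas and none was called in vehicle retinas. No marker of these lists was at 0 in all libraries. Their part in the changes of the receptor genes was not tested.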

How the data were processed

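The values used are deposited raw counts, which the authors made from reads checked with FastQC, trimmed with Trimmomatic, aligned to GRCm38 with STAR and counted with HTSeq, nuclear and mitochondrial genes apart. No strand setting is given in the sources used here, so reads of overlapping genes on opposite strands cannot be told apart. WT counts are listed in a second set of columns with identical values. Columns with the authors' DESeq2 fold changes and p-values against WT were not used. The series' design text gives 3 WT mice, while labels and columns give 4, and all 4 were used. The deposited ID sheet leaves out WT M1 and lists vehicle F1 as C57BL/6J. The growth notes in the labels describe another mouse strain, so diet and age were taken from the design text.

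The 29700 nuclear genes were fitted with edgeR 4.0.16 in R 4.3.3 (TMM, filterByExpr by group, quasi-likelihood F test, 1 fit of all 13 libraries, no covariate), and p-values were adjusted by Benjamini-Hochberg over the 16782 genes kept, with calls at 0.05. The SE is the size of the log2 fold change divided by the square root of F. CPM was scaled by TMM. A count of 0 allows up to 3 counts, or 0.177 to 0.232 CPM by library, which covers counting error only. The p-values set a difference between groups against the spread between libraries within groups. With 1 library per mouse, that spread holds differences between mice and those of library preparation together.

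Transcript GC and exon length came from GENCODE M21, whose gene coordinates were identical for 97.2% of genes. The GC correction was an offset for a cubic trend of log2 counts in GC, fitted in each library, for the 16698 genes (99.5%) with a known GC. The fit was repeated with DESeq2 1.42.0, with limma-trend (limma 3.58.1, log2 CPM at a prior count of 2), with RLE size factors in edgeR, without the filter, with labelled sex as covariate, on each pair of groups alone, with library numbers as replicate block (with and without GC correction), and with each library left out in turn. The self-test of the fit was run on simulated data.

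The receptor genes and the lists of partner genes and cell type markers were chosen with earlier results of these data known. Genes called in any comparison, and in a class without one the most abundant gene, are given with all values, except that results of some genes are not reported here. Grik2, Grin2d, Gabra2 and Gabra4 were added after their values were seen. Of partner genes, up to 4 called genes with the smallest adjusted p are named per list.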

Additional observations from a re-analysis of the deposited data

Results flagged for a closer look

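The value of each receptor gene with per-library values was examined within each group for 1 library that lay far from the rest, by Dixon's ratio of the gap to the range at its 95% critical value. Over 26 genes and 3 groups, 78 sets of values were looked at and 5 were flagged. Chance flags about 1 in 20 such sets. Grik5 was 105 CPM in WT F4, against 53.1 to 59.7 CPM in the other WT libraries. Gabbr1 was 170.1 CPM in TMB F1, against 196 to 203 CPM in the other TMB libraries. Glra2 was 29.5 CPM in TMB M6, with 24.4 to 25.7 CPM in the other TMB libraries. Among vehicle libraries, Grid1 was 18.9 CPM in M4 beside 23.9 to 24.8 CPM, and Grm2 was 19.1 CPM in F1 beside 15.8 to 16.3 CPM. WT F4 is also the library that stood apart by its GC trend.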

How the results depend on the processing

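The counts of receptor genes called are given in the order TMB against vehicle, TMB against WT and vehicle against WT, and they were 0, 1 and 22 in the fit reported. With the GC correction they were 0, 6 and 7. On each pair of groups alone they were 5, 1 and 13. With RLE size factors they were 0, 2 and 23, with DESeq2 0, 5 and 23, and without the filter on low counts 0, 2 and 21. The ranges over the 13 fits that left out a library were 0 to 6, 1 to 26 and 14 to 36, and the highest of each range came without WT F4. For TMB against WT the count was also 2 without TMB F1 and 2 without TMB M6, and for vehicle against WT it was 14 without WT M1 and 14 without WT F3. Chosen after seeing the data, a fit without WT F4 and vehicle F2 gave 9, 27 and 35, a fit without WT F4 with the GC correction gave 0, 7 and 8, and the fits on each pair alone with the GC correction gave 0, 6 and 5. Over all genes the calls were 0, 1600 and 5697 in the fit reported. With the GC correction they were 2, 2653 and 3255. On each pair alone they were 2402, 1053 and 2861, with DESeq2 59, 2202 and 6323, and 2741, 6490 and 9508 without WT F4. With the GC correction they were 367, 3333 and 4783 without WT F4 and 268, 2553 and 2275 on each pair alone. For the other fits the calls over all genes are not given here. For the 60 partner genes the counts were 0, 2 and 22, with ranges of 0 to 12, 1 to 26 and 6 to 41 over the fits that left out a library. Every alternative for partner genes was added after seeing the data. They gave 0, 4 and 5 with the GC correction, 9, 1 and 10 on each pair alone, 0, 3 and 4 on each pair with the GC correction, 13, 26 and 39 without WT F4 and vehicle F2, and 0, 5 and 14 without WT F4 with the GC correction. DESeq2 gave 0, 4 and 23, limma-trend 0, 1 and 23, no filter 0, 1 and 17, and sex as a covariate 0, 1 and 21.

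The deviations of libraries with the same number from their group means correlated at -0.171 to 0.252. Libraries of unlike number were not set beside these values, so they cannot tell whether the numbers pair the mice. With the number as a replicate block, 0, 0 and 9 receptor genes and 0, 0 and 4 partner genes were called, and with the GC correction as well 0, 4 and 4 receptor genes and 0, 3 and 3 partner genes. Under the replicate block Grin2a was -0.07 for TMB against vehicle and Grik2 0.01 for TMB against WT, both opposite in sign to the fit reported.

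No gene called in the fit reported was called in the opposite direction in another fit. The other changes of sign (log2 fold change) were nearly all in fits with the GC correction. For TMB against vehicle these values were -0.02 and -0.01 for Gria2, -0.06 and -0.04 for Gria3, -0.19 and -0.06 for Grin2a, 0.09 to 0.13 for Grin2d (0.10 with all libraries), -0.10 and -0.06 for Grm8, -0.05 and -0.02 for Gabra2, -0.05 and -0.01 for Gabra3, -0.02 for Gabrb1, -0.14 and -0.13 for Gabrb2, -0.10 and -0.09 for Gabrg1, -0.01 for Gabrg3, -0.13 and -0.12 for Gabrr3, -0.06 and 0.00 for Glra2, -0.14 and -0.08 for Glra3, and -0.02 and -0.01 for Glrb. For vehicle against WT they were 0.03 for Gria3, 0.01, 0.05 and 0.06 for Grik2, 0.00 for Grid1, -0.50 and -0.47 for Grin2d, 0.01 and 0.02 for Gabrg1, 0.01 and 0.05 for Gabrr3, and -0.04, -0.03 and -0.02 for Gabbr1. For TMB against WT they were 0.11, 0.14 and 0.15 for Grik2, which was also 0.01 with limma-trend. Without WT F4 and vehicle F2, Grid1 was 0.04 and Gabra4 -0.25 for vehicle against WT, and Grin2d was 0.22 and Gabbr1 0.07 for TMB against WT. Over the fits that left out a library, Grin2a ran over 0.00 to 0.11 and Gabrb2 over -0.03 to 0.06 for TMB against vehicle, Grid1 over -0.07 to 0.07 and Gabra4 over -0.14 to 0.10 for vehicle against WT, and Grik2 over -0.23 to 0.08, Grin2d over -0.21 to 0.22 and Gabbr1 over -0.05 to 0.07 for TMB against WT. Why these values changed was not tested, other than that the GC correction by construction takes out what runs with GC.

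Depth limited few of these genes, since only Gabra5 and Grin3b had libraries under 10 counts. The groups hold 4 or 5 mice, leaving out WT F4 moved the counts more than leaving out any other library, and the GC trend differed between the groups, with its source not tested. A value that missed the threshold does not show that groups were alike.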
